A study of Mus with 16 samples.

Results

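Epiblast stem cells of the cross MolfB6 were compared with those of the cross PwkB6, transcript by transcript. The comparison rests on 8 of the 16 libraries of the series, namely the 4 titled MolfB6 (numbers 1, 2, 3 and 6) and the 4 titled PwkB6 (numbers 1, 3, 5 and 6). All 8 are bulk libraries of ribodepleted total RNA from F1 hybrid lines, each with C57Bl/6J as 1 parent and a wild-derived inbred strain as the other. The series made them to set allelic read assignment in bulk RNA against that in single-cell data, and its labels give no treatment that differs between crosses. The other 8 libraries, 4 of CastB6 and 4 of SpretB6, entered the fit as a shared estimate of the spread and served as a reference for the level of each transcript. The labels name neither the sex nor the passage of a line, nor whether libraries of a cross are separate lines or cultures, so the p-values measure only how far these libraries scatter, and that scatter may be technical.

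Epiblast stem cells are derived from the epiblast of the embryo after implantation and are held in the primed state of pluripotency by FGF and Activin or Nodal signalling. MOLF is an inbred strain of Mus musculus molossinus, a Japanese subspecies with musculus and castaneus ancestry, and PWK is an inbred strain of Mus musculus musculus. In an F1 hybrid both parental genomes are in the same nucleus, and every cross here carries a C57Bl/6J genome. The deposited tables give 1 value per transcript and do not separate the alleles. Whether reads of the wild-derived allele were matched as fully as those of C57Bl/6J was not measured here, so a level of 0 reads means that none were assigned. A transcript is 1 spliced form of a gene, and estimated counts divide reads that match several transcripts among them, so a difference can lie in a gene's output, in its splicing or in that division.

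The files identify transcripts by Ensembl ID and do not pair them with genes, and 0 of the 116747 IDs matched the gene table used here. Transcripts are therefore described by length, level and pattern over the crosses, and no more than 4 are given by ID. The cell type could not be checked against marker genes for the same reason.

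PwkB6 6 stood apart from the other 7 libraries in the length of the transcripts its reads came from. Transcripts of 3280 bases or more took 41.6% of its estimated counts, against 32.9% to 33.5% in the other 3 PwkB6 libraries and 30.3% to 34.0% in the 4 MolfB6 libraries. Transcripts of up to 777 bases took 11.6% in PwkB6 6, against 13.7% to 14.8% and 14.2% to 16.4%. Averaged over 4 libraries, the MolfB6 share of the long class was 32.7% ± 1.68 (SD, n = 4) and the PwkB6 share 35.3% ± 4.20 (SD, n = 4), or 33.2% without library 6. No difference in this share was detected between the crosses (two-sided exact permutation p = 0.486, where the smallest p for 4 against 4 is 0.0286), nor past the threshold in any of the other 7 library measures tested (Benjamini-Hochberg adjusted p = 0.771 for each of the 8). Library totals ran from 59062853 to 66568024 estimated counts in MolfB6 and from 42596559 to 71200628 in PwkB6. Counts of calls by direction, size, length and level follow with all 8 libraries and then without PwkB6 6. Values by length within the highest level class and the comparison with CastB6 and SpretB6 use all 4 PwkB6 libraries.

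**Figure D1:**
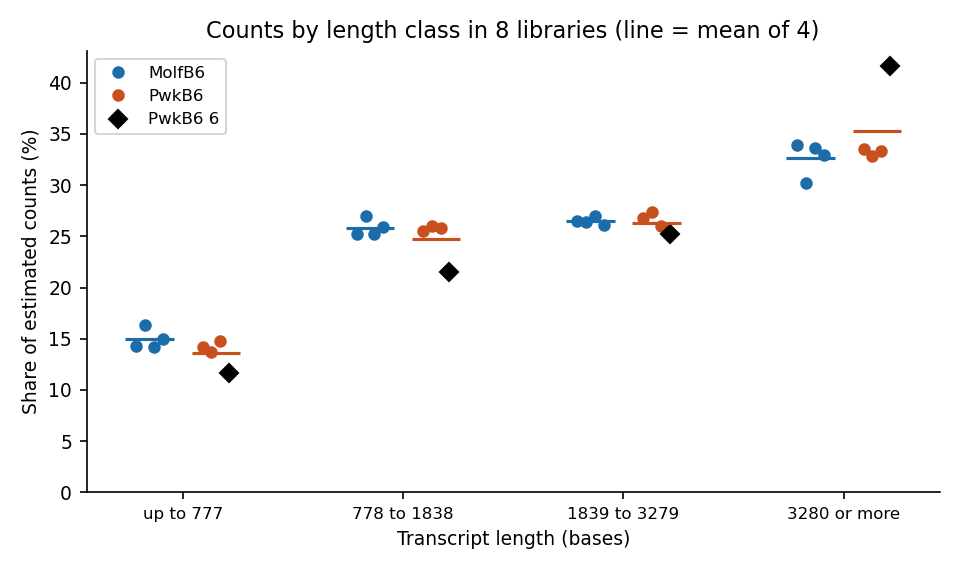
Share of each library's estimated counts (%, vertical axis) that came from transcripts of 4 length classes (bases, horizontal axis) in the 4 MolfB6 and 4 PwkB6 libraries. Points are libraries, lines are means of 4, and the black diamond is PwkB6 6, which reached 41.6% in the longest class while the other 7 libraries lay between 30.3% and 34.0%.

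Abundance differed between MolfB6 and PwkB6 for 682 of the 56721 tested transcripts, or 1.2% (edgeR quasi-likelihood F test over 16 libraries, Benjamini-Hochberg adjusted p under 0.05, referred to below as called). Of these, 349 were higher in MolfB6 (0.615% of those tested) and 333 were higher in PwkB6 (0.587%). The median log2 fold change of the calls, MolfB6 minus PwkB6, was 1.34 for those higher in MolfB6 and -1.82 for those higher in PwkB6. Both medians stay the same when the 54 calls with 0 reads in all 4 libraries of a cross are put at their lower bound. The fit put all 54 over 16-fold, far from the medians, so this step could hardly move them. TPM values of the 2 crosses did not overlap for 302 of the 349 and for 327 of the 333, a separation that 7.98% of all tested transcripts show. The median over all tested transcripts was -0.04 on the log2 scale. It was -0.11 in a fit of log2(TPM + 0.5), so TPM leans further to PwkB6 than the scaled counts behind the calls. The part of this lean in the unequal overlap of the 2 directions was not tested.

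The pair was chosen for description as the closest pair of crosses, so its rank among the pairs is no separate finding. It had the fewest calls among the 6 pairs and the highest mean Spearman correlation between libraries (0.8779). CastB6 with MolfB6 followed at 0.8765 in correlation and had 1564 calls. Without PwkB6 6 the MolfB6 and PwkB6 correlation was 0.8825. Libraries within MolfB6 correlated at 0.8908 to 0.9156, libraries within PwkB6 at 0.8641 to 0.8907 and libraries between the 2 crosses at 0.8483 to 0.9052, so the ranges overlap. The median SD of log2 CPM over tested transcripts was 0.4006 among the MolfB6 libraries and 0.5175 among the PwkB6 libraries, or 0.4263 without PwkB6 6.

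Neither direction held a firm majority of the calls. MolfB6 was the higher cross in 51.17% of them. The share was 41.67% when the fit held only these 2 crosses (372 calls, of which 285 were among the 682 in the same direction). Without PwkB6 6 the share was 52.85% (615 calls, of which 513 were among the 682 in the same direction). Leaving out MolfB6 1 gave 437 calls and leaving out PwkB6 5 gave 990. With the replicate numbers as a block, which the data do not tie together, 304 were called.

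The size of the difference separated the calls into unlike groups. Differences of under 2-fold made up 200 calls (0.353% of those tested), and 125 of these were higher in MolfB6. Differences of 2 to 4-fold made up 214, with 110 higher in MolfB6, and those of 4 to 16-fold 121, with 52 higher in MolfB6. Differences of over 16-fold made up 147 (0.259% of those tested), and here 85 were higher in PwkB6 and 62 in MolfB6. Without PwkB6 6 the calls higher in MolfB6 and in PwkB6 numbered 120 and 78 under 2-fold, 94 and 74 at 2 to 4-fold, 39 and 59 at 4 to 16-fold, and 72 and 79 over 16-fold. The small differences were also the less stable ones. Of the calls under 2-fold, 66 of 200 were called in the same direction in every fit that left out 1 of the 8 libraries, against 118 of 147 of the calls over 16-fold. Their number went from 125 and 75 to 56 and 25 without MolfB6 1 and to 275 and 131 without PwkB6 5. It fell by over 1.5 times in at least 1 direction without MolfB6 2 (73 and 47), MolfB6 3 (99 and 36), MolfB6 6 (64 and 33) or PwkB6 1 (63 and 43). The MolfB6 majority among the calls under 2-fold turned to 20 against 25 in the fit of the 2 crosses alone. That fit called 28 of the 200 under 2-fold and 105 of the 147 over 16-fold.

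Among the calls, transcript length moved with the size of the difference. The median length of calls under 2-fold was 2855 bases, against 2006 for 2 to 4-fold, 1568 for 4 to 16-fold and 882 for over 16-fold, while all tested transcripts had a median of 1838. The order was the same in both directions: calls higher in MolfB6 went from 2628 bases under 2-fold to 1029 over 16-fold, and calls higher in PwkB6 from 3331 to 788. Without PwkB6 6 the medians were 2633.5 bases under 2-fold and 904 over 16-fold. Depth moved with it as well, since the small differences had a median of 1349 reads per library and the large ones 57.2, and the part of depth in the length order was not tested. The other 5 pairs of crosses, which share libraries with this one or with each other, had medians of 2771 to 2981 bases under 2-fold and 861 to 984 over 16-fold, so the order is not particular to MolfB6 and PwkB6.

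**Figure D2:**
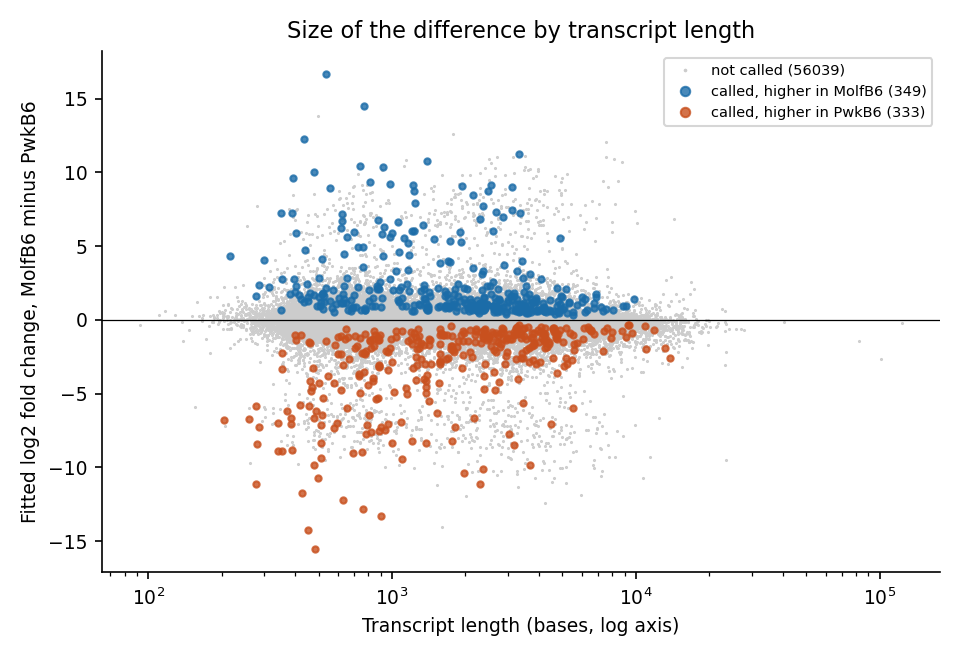
Fitted log2 fold change, MolfB6 minus PwkB6 (vertical axis), against transcript length in bases (horizontal log axis) for the 56721 tested transcripts. Blue and orange points are the 349 and 333 called transcripts and grey points are not called; the called points spread most among short transcripts and narrow towards 0 among long ones.

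**Figure D3:**
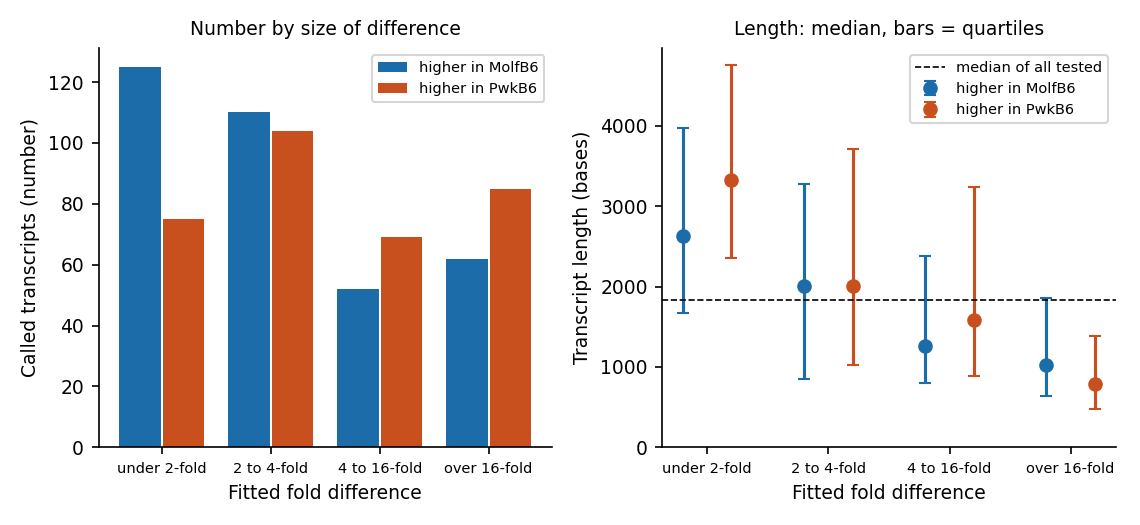
Left, number of called transcripts by fitted fold difference and direction, from 125 and 75 under 2-fold to 62 and 85 over 16-fold. Right, their median length in bases with quartiles as bars, against the median of all tested transcripts of 1838 bases (dashed line).

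How often a transcript was called depended little on its length. The share called was 1.04% among tested transcripts of up to 777 bases, 1.33% from 778 to 1838 bases, 1.18% from 1839 bases to the next limit and 1.26% from 3280 bases on, against 1.2% overall. Without PwkB6 6, over the same transcripts, the shares were 0.956%, 1.24%, 1.02% and 1.1%. What changed was the median absolute log2 fold change of the calls, which was 2.76, 2.07, 1.24 and 1.04 in the same order. Without PwkB6 6 it was 3.14, 2.13, 1.17 and 1. The shortest class held 63 of the 147 calls over 16-fold and the longest class 8, or 61 and 11 calls without PwkB6 6. Over all levels direction did not follow length in order, as MolfB6 was higher in 51.4%, 47.3%, 58.3% and 48.3% of the calls of the 4 classes, and in 49.3%, 48.6%, 57.9% and 55.1% without PwkB6 6. Over all tested transcripts of the longest class the median log2 fold change was -0.12, and without PwkB6 6 it was -0.02.

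By level, the share called was larger among abundant transcripts. It was 0.599% in the lowest of 4 equal classes of mean log2 CPM over the 16 libraries, then 0.726%, 1.42% and 2.06% in the highest, and without PwkB6 6 it was 0.522%, 0.621%, 1.21% and 1.96%. In the highest class 172 of 292 calls (58.9%) were higher in MolfB6, and in the lowest 32 of 85 (37.6%). Without PwkB6 6 the shares higher in MolfB6 were 57.6% and 43.2%. Within the highest level class the share called was 2.12% among transcripts of up to 777 bases and 1.96% among those of 3280 bases or more. There the median absolute log2 fold change of the calls still went from 1.09 in the shortest to 0.75 in the longest class. MolfB6 was higher there in 77.4% (24 of 31), 55.4%, 64.4% and 51.4% of the calls from the shortest to the longest class. The median log2 fold change of all tested transcripts of that level fell in the same order, at 0.18, 0.12, 0.061 and -0.041. These values by length within the highest level class include PwkB6 6 and were not repeated without it.

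The 62 calls over 16-fold higher in MolfB6 summed to 3510 to 3980 TPM in each MolfB6 library and to 61.0 to 95.6 TPM in each PwkB6 library. The 85 higher in PwkB6 summed to 4120 to 5210 TPM in PwkB6 and to 16.2 to 17.5 TPM in MolfB6. A few abundant transcripts carried these sums, as the 5 most abundant held 83.1% of the first and 75.2% of the second. Among the 62, a mean of under 1 TPM in MolfB6 was seen for 24 and one of over 10 TPM for 19. Among the 85, the same limits in PwkB6 gave 22 and 30. All 4 libraries of the lower cross had 0 reads for 25 of the 62 and 29 of the 85. Estimates were whole numbers, to a tolerance of 0.001, in each of the 8 libraries for 5 of the 62 and 5 of the 85, as undivided reads give, and for 1810 of the 56721 tested transcripts.

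A large fitted fold alone was mostly not enough to be called. Of 1120 tested transcripts with a fitted fold over 16, 973 did not pass the threshold. These had a median of 9.78 reads per library and a median SD of log2 CPM within crosses of 1.12, against 57.2 reads and 0.401 for the 147 called. Their median length was 1746 bases, against 882 for the 147 called and 1838 for all tested transcripts. The short length of differences over 16-fold was thus seen in the called ones and hardly in the rest.

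The calls higher in MolfB6 were led by a pair of short transcripts. ENSMUST00000183478.2, of 538 bases, stood at 649.8, 671.9, 766.3 and 552.9 TPM in MolfB6 1, 2, 3 and 6 and had 0 reads in all 4 PwkB6 libraries. It was at least 16200-fold higher in MolfB6, counting 3 reads over the PwkB6 libraries as the limit of detection (edgeR adjusted p = 7e-10). CastB6 and SpretB6 carried it too, at 744 ± 122 and 381 ± 31.5 TPM (SD, n = 4 each), so PwkB6 was the cross without it. ENSMUST00000121654.2, of 768 bases, stood at 95.5, 87.0, 93.3 and 90.3 TPM in the same MolfB6 libraries and at 0 reads in PwkB6. It was at least 3700-fold higher in MolfB6 (edgeR adjusted p = 4.73e-11), and CastB6 and SpretB6 lay between, at 38.1 ± 1.34 and 49.9 ± 4.38 TPM. The TPM of MolfB6 and PwkB6 did not overlap for either transcript, which the choice of described transcripts required.

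On the PwkB6 side the leading transcripts were seen in no other cross. ENSMUST00000178657.2, of 483 bases, stood at 385.4, 392.9, 381.9 and 345.1 TPM in PwkB6 1, 3, 5 and 6 and had 0 reads in all 12 libraries of the other 3 crosses. It was at least 8520-fold higher than in MolfB6 (edgeR adjusted p = 9.33e-05). ENSMUST00000182017.2, of 453 bases, stood at 150.6, 312.0, 122.9 and 88.5 TPM in PwkB6 and also had 0 reads elsewhere, at least 3500-fold higher than in MolfB6 (edgeR adjusted p = 0.00654). The first varied little among the PwkB6 libraries, while the second was highest in PwkB6 3. None of these 4 had whole estimates in every library, and the bounds cover counting error and not the division of reads among transcripts.

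Among calls with no overlap and a mean of at least 5 TPM in the higher cross, the next 5 by fold were taken in each direction. They showed the same near absence in 1 cross. Those higher in MolfB6 were 393 to 1389 bases long and had 0 to 10 reads over the 4 PwkB6 libraries. One of them, of 435 bases, was high in MolfB6 alone, at 246.3 to 357.0 TPM, with 0 to 0.224 TPM in the 12 other libraries. Its 3 reads in PwkB6 give a ratio of 5430 with a 95% counting interval of 1860 to 26300. The other 4 were carried by CastB6 and SpretB6 as well. Those higher in PwkB6 were 276 to 904 bases long and had 0 to 12 reads over the 4 MolfB6 libraries. Of these, 1 of 632 bases (24.2 to 31.1 TPM) and 1 of 429 bases (291.8 to 469.1 TPM) were at most 0.851 TPM in each of the 12 libraries outside PwkB6. Another, of 904 bases, had 0 reads in MolfB6, 28.3 to 55.8 TPM in PwkB6 and 28.0 to 57.2 TPM in the other 8 libraries, so that MolfB6 stood alone. A transcript of 764 bases showed the same pattern, with 0 reads in MolfB6 and 19.8 to 43.6 TPM in the 12 other libraries. Calls below 5 TPM were outside this choice. Among them was 1 of 3327 bases, with a mean of 1.81 TPM in MolfB6 and 0 TPM in PwkB6, CastB6 and SpretB6 (log2 fold change 11.23).

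**Figure D4:**
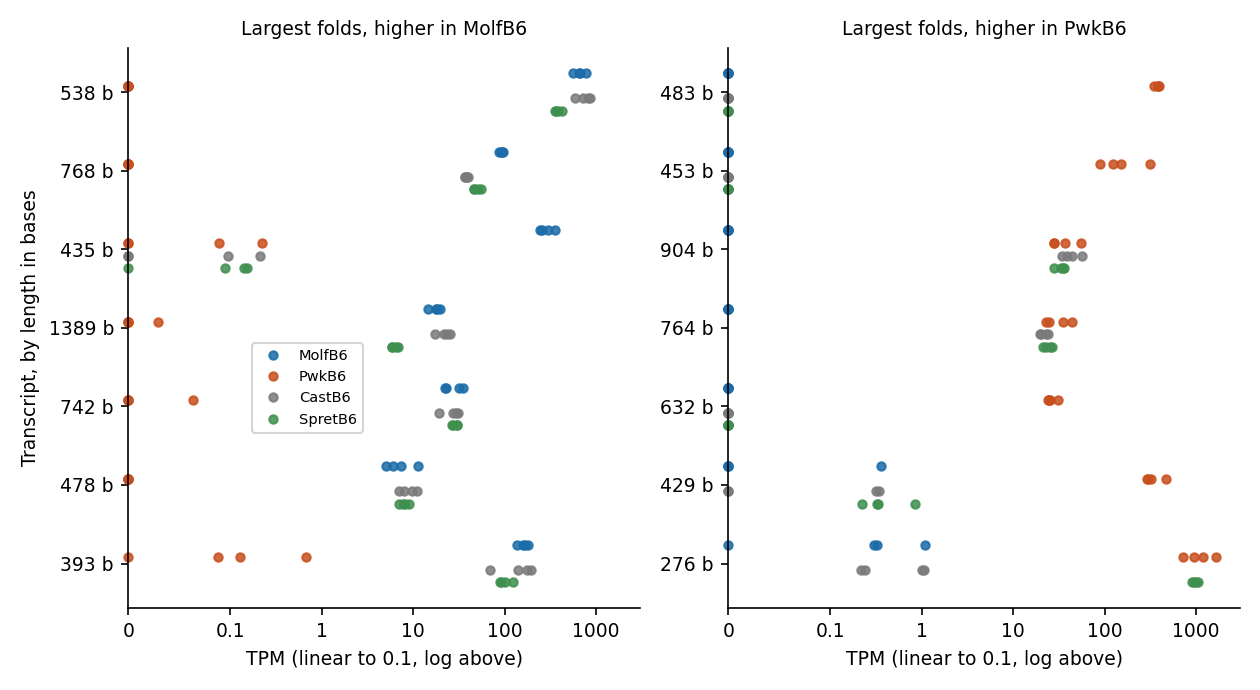
TPM per library (horizontal axis, linear to 0.1 and log above) of 7 called transcripts in each direction, labelled by length in bases. They have the largest fitted folds among calls with no overlap and a mean of at least 5 TPM in the higher cross. Each point is 1 library and colours are the 4 crosses. By this choice MolfB6 and PwkB6 do not overlap in any of the 14. CastB6 and SpretB6 lie near MolfB6 or PwkB6 in some rows and between them in others, such as that of 768 bases.

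Among the most abundant called transcripts, 2 had large folds in PwkB6 and different partners. A transcript of 276 bases stood at 718.4 to 1650 TPM in PwkB6 and 891.8 to 1046 TPM in SpretB6, and at 0 to 1.08 TPM in MolfB6 and CastB6 (log2 fold change -11.12 ± 0.61, SE; edgeR adjusted p = 7.5e-08). One of 882 bases stood at 953.3 to 1250 TPM in PwkB6 libraries and 834.8 to 1183 TPM in CastB6 ones, and at 3.16 to 9.20 TPM in MolfB6 and SpretB6 (-7.54 ± 0.32; adjusted p = 4.92e-09). The reverse pattern appeared for a transcript of 438 bases, whose means (± SD, n = 4) were 1386 ± 107 TPM in MolfB6 and 1687 ± 141 TPM in SpretB6 but 56.5 ± 11.6 TPM in PwkB6 and 27.5 ± 28.7 TPM in CastB6. SpretB6 thus shared the high level with PwkB6 in the first case and with MolfB6 in the last, and CastB6 shared it with PwkB6 in the second.

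Other abundant calls differed by degree. A transcript of 637 bases stood at 1298 to 1933 TPM in MolfB6 and 588.4 to 757.7 TPM in PwkB6 (log2 fold change 1.41 ± 0.16, SE; edgeR adjusted p = 0.000208). With 978 ± 191 TPM in CastB6 and 686 ± 79.4 TPM in SpretB6 (SD, n = 4 each), MolfB6 was the highest cross. One of 965 bases stood at 135.1 to 146.0 TPM in MolfB6 and 545.4 to 817.8 TPM in PwkB6 (-2.17 ± 0.16; adjusted p = 2.88e-06), and here MolfB6 was the lowest cross. A call higher in PwkB6, of 1747 bases, had a smaller difference: 410.1 to 613.0 TPM in MolfB6 and 734.3 to 919.3 TPM in PwkB6, a log2 fold change of -0.41 (adjusted p = 0.0214). It missed the threshold in 10 of 27 alternatives, among them the fit of these 2 crosses alone (adjusted p = 0.209).

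Among calls with no overlap and at least 5 TPM in the higher cross, the longest higher in MolfB6 was of 9797 bases, at 54.1 to 66.6 TPM in MolfB6 and 21.1 to 36.8 TPM in PwkB6, and the CastB6 and SpretB6 libraries at 18.5 to 34.2 TPM overlapped with PwkB6. It differed by 1.42 ± 0.14 on the log2 scale (SE; adjusted p by edgeR 5.41e-05). The next, of 9135 bases, stood at 9.60 to 13.1 and 5.38 to 8.87 TPM. In both the highest PwkB6 value was that of PwkB6 6, and both were called without it. The 2 longest on the PwkB6 side by the same limits, of 10883 and 9392 bases, differed by -0.41 and -0.33 on the log2 scale, with adjusted p of 0.0403 and 0.0442. PwkB6 6 was again the highest library in both. Without it the adjusted p was 0.0857 for the first and 0.0104 for the second. Over the 27 alternatives the first missed the threshold in 21 and the second in 22.

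Transcripts present in 1 of the 2 crosses were counted without a test. Presence meant 10 or more reads in every library of 1 cross, and absence 3 or fewer in every library of the other. By these limits 41 transcripts were present in MolfB6 only and 69 in PwkB6 only, of 116747 listed. Of these, 28 and 48 had 0 reads in all 4 libraries of the other cross, and 24 and 39 were called, against 1.2% of all tested transcripts. The limits and the test use the same read counts, so a high share called was built in. Most were rare, with medians of 74.3 and 50.2 reads per library in the cross that had them, and 2 in each group passed a mean of 100 TPM. Their median lengths were 1230 and 937 bases. With 50 reads required for presence, 18 and 23 remained. The excess in PwkB6 was smallest without PwkB6 6, at 73 and 83. Without PwkB6 1, 3 or 5 the counts were 69 and 109, 65 and 128, and 69 and 111. Fewer libraries then had to meet the limits. Estimates were whole in all 8 libraries for 5 of the 41 and 2 of the 69. One of the 5, of 917 bases, stood at 2.48 to 5.60 TPM in MolfB6. It had 0 reads in PwkB6 and SpretB6 and reached 0.0497 TPM in 1 CastB6 library. It was at least 209-fold higher in MolfB6 than in PwkB6 (edgeR adjusted p = 0.00396). On the PwkB6 side, one of 1203 bases stood at 0.458 to 1.06 TPM and had 0 reads in MolfB6, at least 53.5-fold lower there (adjusted p = 0.0178, and 0.0544 without PwkB6 6).

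The levels of CastB6 and SpretB6 were then set beside the pair. For each call, their mean log2 CPM was compared with the means of MolfB6 and PwkB6. Among the 62 calls over 16-fold higher in MolfB6, both lay nearer MolfB6 for 30 (48.4%) and both nearer PwkB6 for 14 (22.6%). The remaining 18 had CastB6 and SpretB6 on opposite sides. Among the 85 over 16-fold higher in PwkB6, both lay nearer MolfB6 for 23 (27.1%) and both nearer PwkB6 for 37 (43.5%). Over all 56721 tested transcripts the shares were 36.2% nearer MolfB6 and 26.1% nearer PwkB6, so the calls higher in MolfB6 leaned to the same side as all tested and those higher in PwkB6 to the other. At 2 to 16-fold the shares nearer MolfB6 and nearer PwkB6 were 29.0% and 37.7% of the 162 calls higher in MolfB6 and 38.7% and 21.4% of the 173 higher in PwkB6, the latter near those of all tested. Under 2-fold they were 32.0% and 27.2% of the 125 higher in MolfB6 and 34.7% and 28.0% of the 75 higher in PwkB6, again near those of all tested.

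Over all 682 calls CastB6 lay nearer MolfB6 in 58.4% and SpretB6 in 45.9%. Over all tested transcripts the same shares were 57.2% and 52.9%, so the share for CastB6 among the calls was close to that of any transcript. No test was made of these shares, since transcripts are not replicates.

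**Figure D5:**
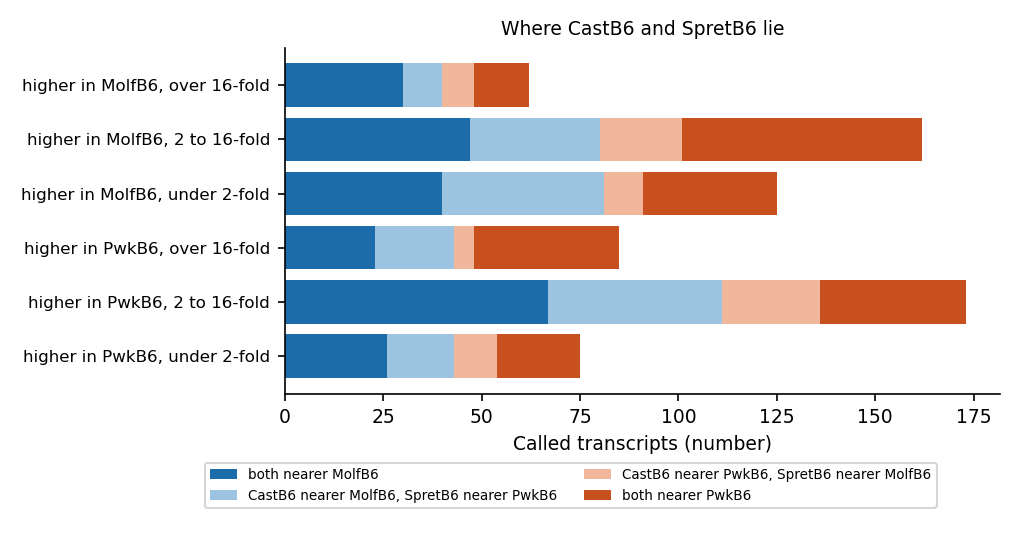
Number of called transcripts (horizontal axis) by direction and fold class, divided by whether the mean log2 CPM of CastB6 and of SpretB6 lay nearer MolfB6 or PwkB6. Among calls over 16-fold both others lie on the side of the higher cross in 30 of 62 and 37 of 85 and on the side of the lower cross in 14 and 23, and among calls of 2 to 16-fold the first counts are 47 and 37 and the second 61 and 67.

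Among bulk libraries such as these, fewer cells that carry a transcript and less of it per cell cannot be told apart.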

How the data were processed

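Bulk RNA-seq of 16 libraries was used. Per the file headers, each deposited table gives transcript length, effective length, TPM and estimated counts. Salmon, DESeq2 and mm10 appear in the submitters' processing notes. Their versions, the transcript set and any strand option were not given in the sources used. The authors' deposited TPM values are scaled for transcript length and library total. The deposited estimated counts were rounded, then fitted in R 4.3.3 by edgeR 4.0.16 (filterByExpr, minimum count 10 and total 15, TMM, quasi-likelihood F test over the 4 crosses, Benjamini-Hochberg threshold 0.05). Standard errors come from the log2 fold change and F. DESeq2 1.42.0, limma 3.58.1 and other filters were alternatives. Counting limits use 3 reads over a cross and, like the intervals, cover counting error only. Log2 CPM used a prior count of 2.

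Described transcripts were called, had TPM that did not overlap and reached a mean of 5 TPM in the higher cross: per direction the 7 largest folds, 4 most abundant, 2 longest and 2 shortest, plus up to 3 present in 1 cross with whole estimates. The members and lists were chosen with earlier results of these data known. Gene lists and markers fixed for named genes were not run, because no ID could be paired with a gene. Same-numbered libraries did not deviate together (correlations of 0.0042, 0.066 and -0.044 for numbers 1, 3 and 6), so the numbers were not taken as pairs.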

Additional observations from a re-analysis of the deposited data

Results flagged for a closer look

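In 10 of 92 groups of 4 libraries, over library measures and the TPM of the described transcripts, a single library lay apart from its 3 partners. Chance alone picks about 1 group in 20, here 4.6, and the groups are not independent. Groups with 0 TPM in all 4 libraries count among the 92 but cannot be picked. Those with 3 libraries tied at 0 and 1 above are always picked, so 4.6 is only a rough guide. PwkB6 6 had 41.63% of its counts and 11.56% of its TPM in transcripts of 3280 bases or more (others 32.89% to 33.49% and 8.191% to 8.392%) and 21.51% of its counts in transcripts of 778 to 1838 bases (others 25.51% to 26.04%). The 429-base transcript stood at 469.1 TPM in PwkB6 5, against 291.8 to 317.8, and at 0.3594 TPM in MolfB6 3, against 0. The 9392-base transcript stood at 14.67 TPM in MolfB6 2, against 19.94 to 20.32. In 4 other groups 3 libraries tied at 0 TPM: PwkB6 3 had 0.02872 TPM of the 1389-base transcript, PwkB6 5 had 0.06356 TPM of the 742-base and 0.06848 TPM of a 390-base transcript, and PwkB6 6 had 0.02644 TPM of a 2591-base transcript.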

How the results depend on the processing

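The 682 calls became 2459 with DESeq2 (1272 higher in MolfB6, 1187 in PwkB6), 372 (155 and 217) in a fit restricted to the 2 crosses, and 313 (144 and 169) when PwkB6 6 was also left out, a setting chosen after seeing the data. Limma on log2(TPM + 0.5) gave 1079, with 630 higher in PwkB6, and with a pseudocount of 0.1 it gave 591 there; TPM moved the median of all tested transcripts to -0.11 and -0.15. Leaving out each library in turn gave 437 (without MolfB6 1) to 990 (without PwkB6 5), with 233 to 565 higher in MolfB6 and 204 to 425 in PwkB6. The majority turned in 5 settings, with MolfB6 higher in 41.67% (2 crosses), 46.01% (2 crosses without PwkB6 6), 41.61% and 41.49% (TPM) and 48.45% (without MolfB6 2), and reached 57.07% at most with a library left out.

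With the replicate number as a block, 304 were called over 16 libraries (154 and 150; 56 over 16-fold in PwkB6, median length over 16-fold 846) and 0 over the 2 crosses (0 in each direction and over 16-fold), where 3966 had an unadjusted edgeR p under 0.05. In the block fit of the 2 crosses, MolfB6 2 and PwkB6 5 had no library of the same number in the other cross. A library alone in its block adds nothing to the comparison, so few were left to estimate the spread. The 0 calls there therefore cannot tell whether the differences hold among libraries of the same number. The numbers were not taken as pairs.

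Calls over 16-fold, 62 and 85, lay between 56 and 72 and between 71 and 91 with a library left out. They were 184 and 259 with DESeq2, 23 and 36 with a filter of 5 CPM, and 19 and 28 with log2(TPM + 0.5), which compresses low levels. Median lengths kept their order, 2855 bases under 2-fold and 882 over 16-fold. Under 2-fold they were 2691 (voom), 2642 (no filter), 3705 (2 crosses), 3159 (2 crosses without PwkB6 6), 2090.5 and 2057 (TPM) and 2633.5 to 3132 (a library left out). Over 16-fold they were 1524 (DESeq2), 967 (voom), 846 (no filter), 952 (2 crosses), 967 (2 crosses without PwkB6 6), 700 and 764 (TPM) and 819 to 904. Transcripts present in 1 cross, 41 and 69, fell to 18 and 23 at 50 reads and rose to 65 to 78 and 83 to 128 with a library left out, since fewer libraries then had to meet the limits. The causes of the other changes were not tested. Among the alternatives for the described transcripts, 749 values kept the direction and passed the threshold, 132 missed it and 0 reversed. These transcripts were called and did not overlap in the same libraries, so a reversal could hardly arise and the 0 is no check of direction.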
